A study of Mus musculus with 16 samples.

Results

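Macrophage polarization was followed through 10 genes that mark or carry out the alternatively activated (M2-like) and classically activated (M1-like) states: Mrc1, Arg1, Chil3, Retnla, Cd163, Msr1 and Il10 on the first side and Nos2, Tnf and Il6 on the second. Members were the probe sets whose only gene symbol in the platform annotation is one of these, which gave 13 probe sets of 45037 tested and 10 genes of 18193. Msr1 had 4 probe sets and every other member 1. Transcripts were measured on 1 array per tumor in 16 subcutaneous B16-OVA tumors, a mouse melanoma line expressing ovalbumin, grown in C57BL/6-Ly5.1 mice that were 6 to 12 weeks old at injection. Each of the 4 groups held 4 mice, and whole tumor tissue was snap frozen at day 18 after inoculation. Control mice received the vehicle MCT and control IgG. The CD40 group received vehicle and an agonist antibody against CD40, a receptor of antigen-presenting cells. The MEKi group received control IgG and GDC-0623, an inhibitor of the kinase MEK, at 30 mg/kg daily for about 2 weeks, and the MEKi+CD40 group received GDC-0623 and the CD40 antibody. Antibodies went in intraperitoneally on days 3, 5 and 7 of treatment and again 1 day before the analysis. All tumors came from 1 cell line, and no cells were sorted.

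Macrophages take up different programs according to the signals they meet. Lipopolysaccharide and interferon gamma induce iNOS, TNF and IL-6, which serve killing and inflammation, whereas IL-4 and IL-13 act through the transcription factor STAT6 to induce arginase 1, chitinase-like and resistin-like proteins and the mannose receptor, which serve repair and parasite defense. Tumor macrophages often carry genes of both programs, and several of the members are also made by other cells, such as Il6 by fibroblasts.

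All values are log2 signals, and differences are in log2 units. Background was set at 4.94, under which lay 95% of 44 probe sets for olfactory receptors, and 39.7% of all probe sets lay below it. By the mean over all tumors, 7 of the 10 members lay above background at their brightest probe set, and Retnla (4.82), Cd163 (4.62) and Il10 (4.07) did not. The Il6 mean (5.47) rests on a few high tumors, and Il6 lay below background in most control, CD40 and MEKi tumors. Levels are compared between tumors and never between genes, because probe sets differ in brightness. The study reported that its B16-OVA tumors held rather few myeloid cells, and it centred its myeloid analyses on its other tumor models. Macrophage identity genes, such as the receptor Csf1r and complement C1qa, were all above background (14 of 14 measured), so macrophage transcripts were present. The mean level of that list was 6.73 to 8.82 in control, 8.47 to 10.62 in CD40, 5.45 to 7.85 in MEKi and 6.65 to 10.04 in MEKi+CD40 tumors. In these bulk tumors a lower level can mean fewer macrophages or less RNA per macrophage, and these cannot be told apart.

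Several tumors stood apart from the rest of their group. The mean level of 7 fibroblast genes was 10.71 to 12.07 in CD40 tumor 3, MEKi tumor 3 and MEKi+CD40 tumors 1 and 3, against 7.83 to 9.04 in the other 12 tumors. In all 4 of these tumors, 5 of the 7 genes were higher than in any other tumor. Skeletal muscle genes were also high in MEKi+CD40 tumor 1 (11.92), MEKi+CD40 tumor 3 (9.12) and CD40 tumor 3 (7.73), and lay at 5.56 or below elsewhere. Xist, a transcript of cells with an inactive X chromosome, was at 10.59 in MEKi+CD40 tumor 1 and at 4.44 to 5.19 in the other 15 tumors, and the labels give no sex. The study's methods describe male mice. This gene was looked at after its values were seen. Melanocyte genes were level across tumors, at 13.54 to 13.82. The T cell list was at 5.50 to 6.66 in control, 6.00 to 7.93 in CD40, 5.30 to 5.51 in MEKi and 5.54 to 7.21 in MEKi+CD40 tumors. Eosinophil and mast cell genes were mostly below background (7 of 8 measured). For many of the named differences, the value or group mean without some of the tumors with high fibroblast genes stands beside it. The neutrophil list was also highest in MEKi+CD40 tumor 1 (6.61), CD40 tumor 3 (6.53) and MEKi+CD40 tumor 3 (6.44), and lay at 4.58 to 5.23 in the other 13 tumors.

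**Figure D1:**
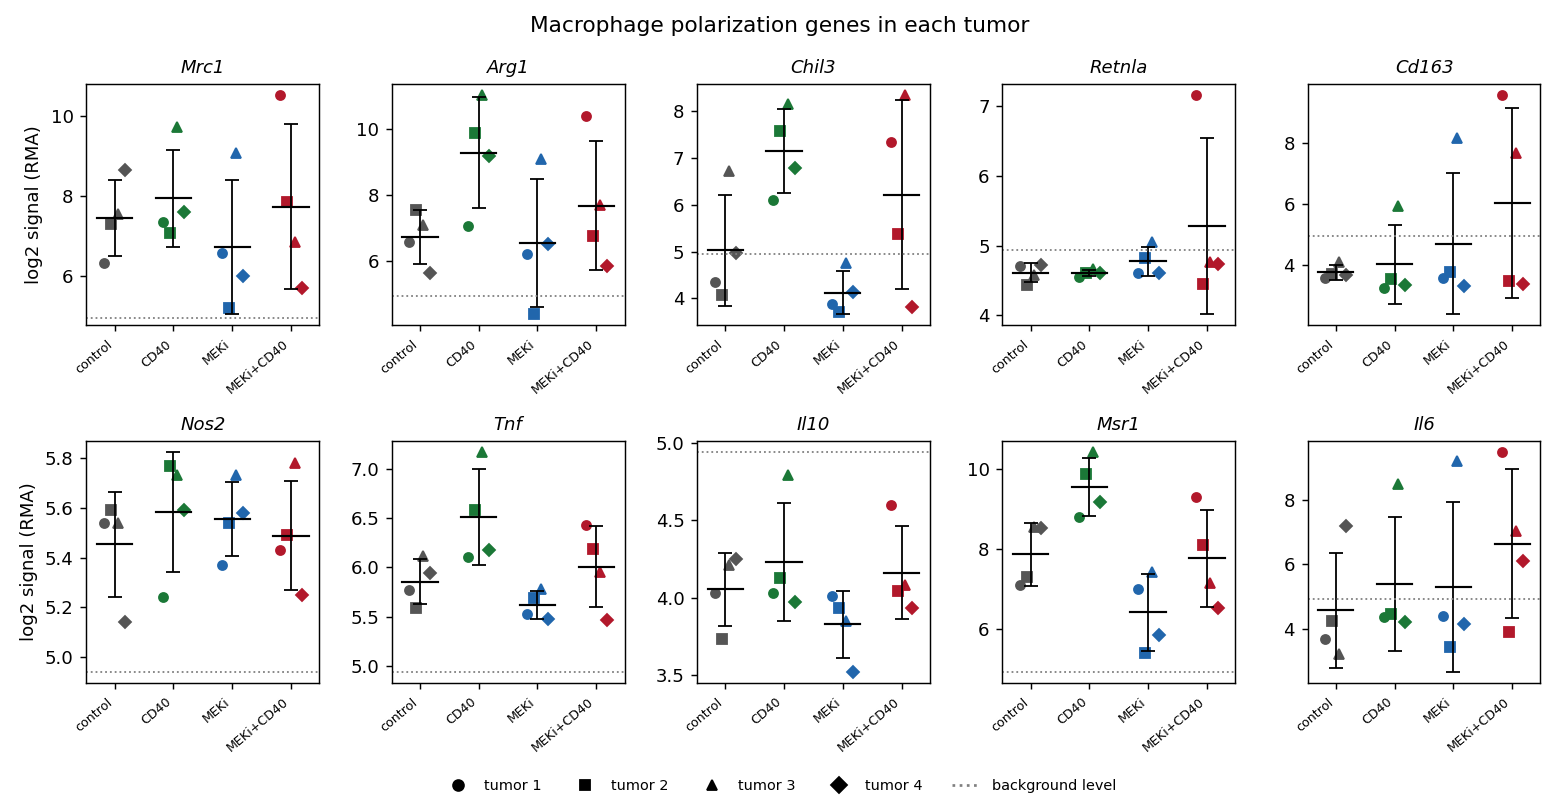
Log2 signal of each member (brightest probe set) in each of the 16 tumors, 1 panel per gene, with the 4 groups along the x axis, a marker shape per tumor number, a black line at each group mean with its SD over 4 tumors, and a dotted line at background. Mrc1, Arg1, Chil3, Nos2, Tnf, Il10 and Msr1 had their highest group mean in CD40 tumors, while Cd163 and Il6 were high in only some tumors.

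Promoters of 6 of the 10 members (Mrc1, Chil3, Retnla, Cd163, Tnf and Il6) were matched by symbol in RefSeq (GRCm38.p6). The 250 bases before the start used by the promoter table are printed for Chil3, a member with a higher mean in CD40 tumors that did not pass the test, and for Cd163 and Il6, which peaked in the tumors with high fibroblast genes, so that members with different patterns can be set side by side. Capitals mark matches, on either strand, to the interferon-type STAT motif GAS (TTCNNNGAA), the IL-4-type STAT6 motif (TTCNNNNGAA), AP-1 (TGANTCA) and NF-kB (by name).
Chil3 promoter, chr3:106167565-106167814, minus strand: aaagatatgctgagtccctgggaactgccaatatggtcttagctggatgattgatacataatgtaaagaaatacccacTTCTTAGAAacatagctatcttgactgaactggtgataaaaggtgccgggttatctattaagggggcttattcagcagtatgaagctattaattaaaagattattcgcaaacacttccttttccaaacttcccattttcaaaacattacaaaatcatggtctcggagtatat
Cd163 promoter, chr6:124304401-124304650, plus strand: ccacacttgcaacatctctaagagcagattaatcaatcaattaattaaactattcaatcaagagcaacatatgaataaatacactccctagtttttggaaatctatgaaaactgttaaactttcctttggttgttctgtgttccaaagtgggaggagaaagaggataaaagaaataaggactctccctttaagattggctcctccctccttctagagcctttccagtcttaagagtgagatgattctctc
Il6 promoter, chr5:30012864-30013113, plus strand: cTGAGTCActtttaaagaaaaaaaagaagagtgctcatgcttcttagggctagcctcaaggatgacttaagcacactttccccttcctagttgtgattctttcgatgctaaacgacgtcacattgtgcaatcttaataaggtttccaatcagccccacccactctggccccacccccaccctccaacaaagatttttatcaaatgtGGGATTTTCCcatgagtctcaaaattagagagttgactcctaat
The Chil3 window held a GAS match 172 to 164 bases before the start. The Il6 window held an AP-1 match 249 to 243 bases and an NF-kB match 44 to 35 bases before the start, and the Cd163 window held none of the motifs. For Cd163 the start used lies just inside the outermost start annotated for the gene, so the end of its window overlaps the gene. Among the others, Retnla held a STAT6 match (TTCACAAGAA) 145 to 136 bases before the start. Of 32851 promoters of this length, 7.02% held GAS, 5.85% STAT6, 6.75% AP-1 and 7.25% NF-kB, so such matches are common and are given as a description.

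Comparing CD40 tumors with controls asked what the agonist antibody did alone. Msr1, Arg1, Chil3 and Tnf had the largest shifts in relation to their error, all toward higher levels in CD40 tumors. None of the 10 members passed an adjusted p under 0.05 (limma, over all probe sets), nor did any probe set on the array (0%). At an unadjusted p under 0.05, 4 of the 10 were higher and 0 lower, against 3.33% of all probe sets higher and 5.23% lower. The members' median difference was 0.57 and that of all probe sets was −0.03, with 9 members positive and 1 negative.

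Msr1 encodes scavenger receptor A, which takes up modified lipoproteins and bacteria. Its brightest probe set read 7.10, 7.31, 8.55 and 8.54 in control tumors and 8.80, 9.88, 10.43 and 9.18 in CD40 tumors. Every CD40 tumor lay above every control tumor, the only member for which the groups did not overlap, as was the case for 1.49% of all probe sets in this direction. The difference was 1.70 (SE 0.43, 3.24-fold, 95% interval 0.72 to 2.68, limma adjusted p = 0.472), and it was 1.41 without CD40 tumor 3. The other 3 probe sets differed by 1.27, 1.04 and 0.68, and their groups did not overlap either, although the last of these was below background.

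**Figure D2:**
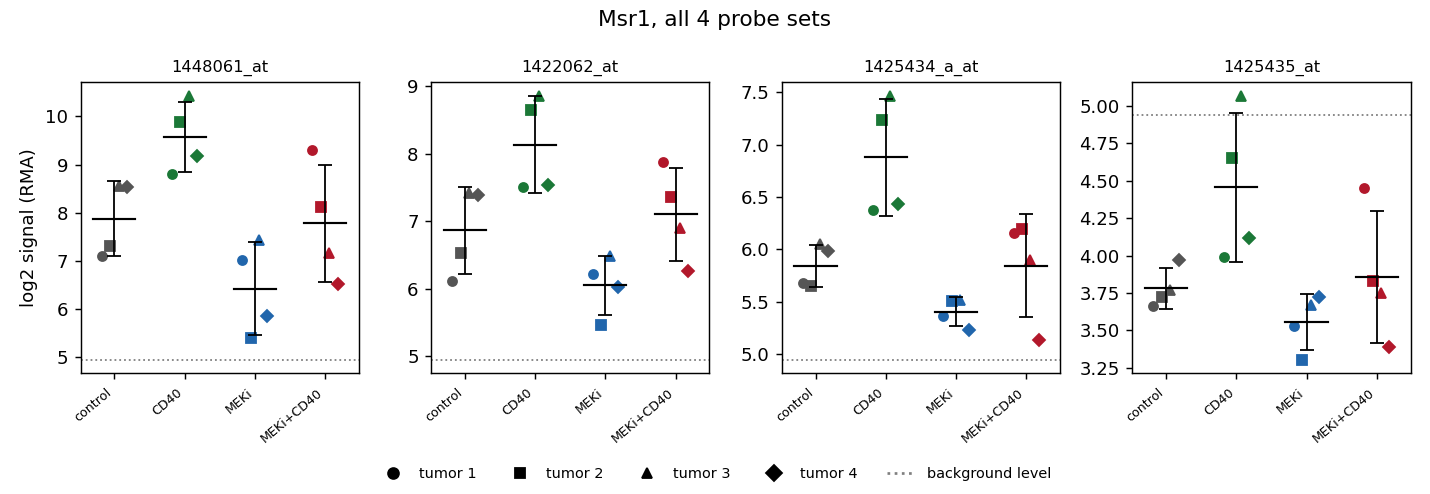
Log2 signal of the 4 Msr1 probe sets in each tumor, 1 panel per probe set, with the groups along the x axis, a black line at each group mean with its SD over 4 tumors, and a dotted line at background. All 4 probe sets placed every CD40 tumor above every control tumor.

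Arg1 encodes arginase 1, which breaks down the arginine that iNOS would otherwise use. It read 6.59, 7.56, 7.10 and 5.65 in control tumors and 7.05, 9.88, 11.06 and 9.20 in CD40 tumors. CD40 tumor 1 lay within the control range and the other 3 lay above it. The difference was 2.57 (SE 0.76, 5.95-fold, 95% interval 0.86 to 4.28, limma adjusted p = 0.511), and it was 1.99 without CD40 tumor 3.

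Chil3 encodes Ym1, a chitinase-like protein secreted by alternatively activated macrophages. It read 4.34, 4.08, 6.71 and 4.97 in control tumors and 6.09, 7.58, 8.14 and 6.79 in CD40 tumors. Only CD40 tumor 1 lay within the control range, because control tumor 3 was high, and 2 control tumors were below background. The difference was 2.13 (SE 0.60, 4.36-fold, limma adjusted p = 0.511), and it was 1.795 without CD40 tumor 3. A further probe set shared by Chil3 and its close relative Chil4, outside the rule because it names both genes, differed by 1.04 (SE 0.34, limma adjusted p = 0.532).

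Tnf encodes the inflammatory cytokine TNF. It read 5.77, 5.59, 6.12 and 5.94 in control tumors and 6.11, 6.58, 7.17 and 6.18 in CD40 tumors. The ranges touched, with CD40 tumor 1 just under the highest control. The difference was 0.66 (SE 0.23, 1.58-fold, limma adjusted p = 0.54), and it was 0.44 without CD40 tumor 3, the tumor in which fibroblast and muscle genes were also high.

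The other members had differences close to or below their errors. Mrc1, the mannose receptor CD206, differed by 0.49 (SE 0.63), with control tumors at 6.32, 7.30, 7.54 and 8.65 and CD40 tumors at 7.35, 7.08, 9.74 and 7.60. Its difference was −0.11 without CD40 tumor 3. Nos2, which encodes iNOS, differed by 0.13 (SE 0.14, 95% interval −0.19 to 0.45), and the resistin-like Retnla by −0.0025 (SE 0.08), with every tumor of both groups below background for Retnla. The anti-inflammatory cytokine Il10 differed by 0.18 (SE 0.19) and was below background in every tumor of the series. Cd163 read 3.23, 3.54, 5.93 and 3.34 in CD40 tumors, so that tumor 3 alone was above background, and differed by 0.27 (SE 0.53). The cytokine Il6 read 4.36, 4.45, 8.5 and 4.21, again with tumor 3 apart, against 3.67, 4.25, 3.22 and 7.18 in control tumors, and differed by 0.80 (SE 1.11). Without CD40 tumor 3 these differences were −0.38 and −0.24.

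The macrophage identity list moved with these members: 14 of its 14 measured genes had higher means in CD40 tumors (median difference 1.39), 7 of them at an unadjusted p under 0.05 and 0 at an adjusted one. When the level of that list was added to the fit as a covariate, the difference was 1.76 (SE 0.92) for Arg1, 0.96 (SE 0.52) for Chil3, 0.65 (SE 0.16) for Msr1 and 0.19 (SE 0.17) for Tnf. Of these, Arg1 moved the least in proportion. The sign turned for Mrc1 (−0.88), Cd163 (−0.71) and Il6 (−1.25). The list and the members come from the same tumors, and its part in the differences was not tested.

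**Figure D3:**
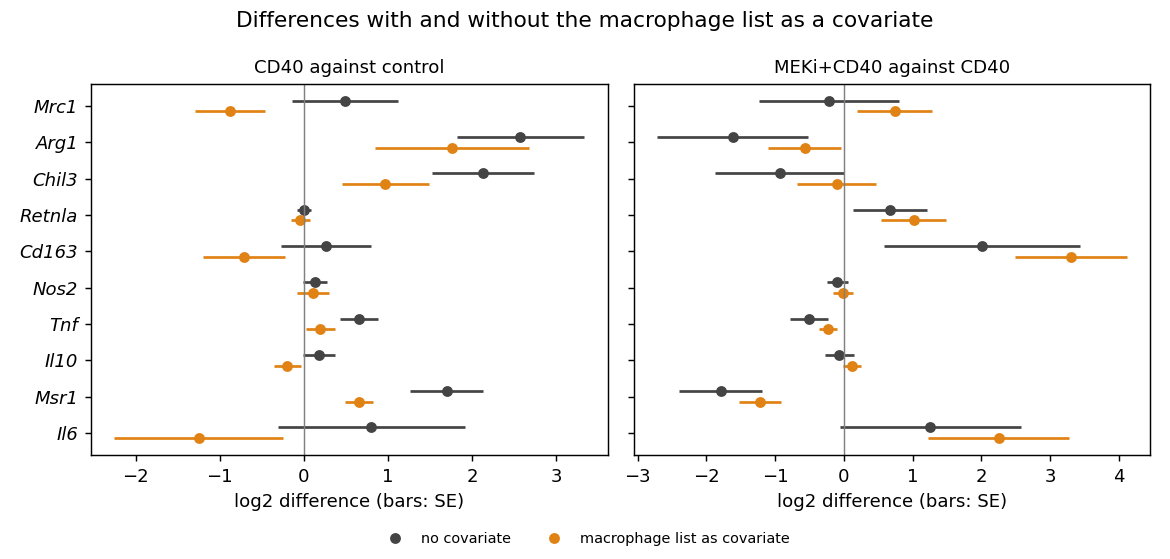
Differences of each member in log2 units without and with the mean of the macrophage identity list as a covariate, for CD40 against control (left) and MEKi+CD40 against CD40 (right), with bars for the SE. In CD40 against control, Msr1 went from 1.70 to 0.65 and Tnf from 0.66 to 0.19.

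The same contrast was read on genes of the pathways around the members. Of 18 other genes of the IL-4 program, 7 were higher and 0 lower at an unadjusted p under 0.05, with a median difference of 0.41, beside 3.33% higher and 5.23% lower among all probe sets. Of the 18, 7 were below background on average, among them Alox15 and Pdcd1lg2, which are in the 7 counted as higher. Il13ra1, a receptor chain for IL-13, differed by 1.17 (SE 0.17) and Tgm2, a transglutaminase, by 1.68 (SE 0.45). Of 16 other genes of the LPS and interferon gamma program, 7 were higher and 0 lower, with a median of 0.91, and 5 were below background, among them Il1a, which is in the 7 counted as higher. Fpr2, a receptor for formyl peptides, differed by 3.01 (SE 0.88). Of 7 arginine metabolism genes, 2 were higher and 0 lower, with a median of 0.035 (4 positive, 3 negative). These 2 were Arg2, below background on average, and the cationic amino acid transporter Slc7a2, which differed by 1.63 (SE 0.48). Of 6 cytokine receptors, 1 was higher and 0 lower, with a median of 0.29 (4 positive, 2 negative). This was Tnfrsf1b, which binds TNF and differed by 1.25 (SE 0.54). None of these passed an adjusted p under 0.05 (limma), and genes of both programs had higher means. The median difference of the macrophage identity list was larger, at 1.39, and its part was not tested. Among CD40 tumors, tumor 3 was highest in both program lists. It was at 7.16 for the IL-4-type list, against 6.14 to 6.43 in the other CD40 tumors and 5.65 to 6.19 in controls. For the LPS and interferon gamma list it was at 8.37, against 6.91 to 7.63 and 6.16 to 6.97.

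**Figure D4:**
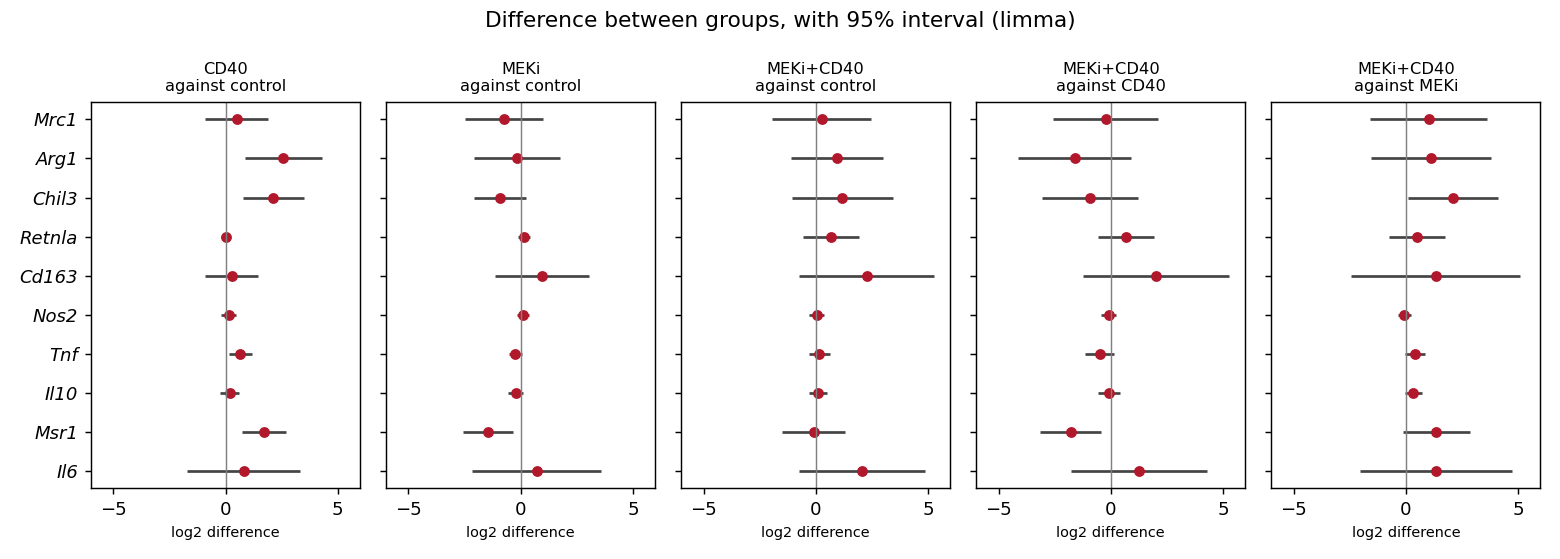
Difference of each member in log2 units, with bars for the 95% interval, in the 5 comparisons of 2 groups. In CD40 against control the intervals of Arg1, Chil3, Tnf and Msr1 lie above 0, and Msr1 lies below 0 in MEKi against control and in MEKi+CD40 against CD40.

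Comparing MEKi tumors with controls asked what the inhibitor did alone, and it shares the control tumors with the previous comparison. Msr1 had the largest shift relative to its error, toward lower levels in MEKi tumors. None of the 10 members passed an adjusted p under 0.05 (limma), as was true of all probe sets (0%). At an unadjusted p under 0.05 Msr1 was the 1 member lower and 0 were higher, against 3.32% of all probe sets lower and 3.58% higher. The members' median difference was −0.20 against 0.01 over all probe sets, with 4 positive and 6 negative.

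Msr1 read 7.01, 5.40, 7.44 and 5.86 in MEKi tumors, against 7.10 to 8.55 in control tumors. MEKi tumor 3 lay within the control range. The difference was −1.45 (SE 0.50, 95% interval −2.57 to −0.33, limma adjusted p = 0.661). At another Msr1 probe set the groups did not overlap, as for 1.68% of all probe sets in this direction, and the difference was −0.44 (SE 0.12). With the macrophage identity list as a covariate the Msr1 difference was −0.31, and the identity genes had a median difference of −1.38 with 7 of 14 lower at an unadjusted p under 0.05 and 0 at an adjusted one. By the mean of all 4 Msr1 probe sets it was −0.73.

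Among the other members, Tnf differed by −0.24 (SE 0.12), Chil3 by −0.90 (SE 0.51) and Mrc1 by −0.74 (SE 0.78). Nos2, Retnla and Il10 differed by 0.10, 0.17 and −0.23. Arg1 spread widely in MEKi tumors, at 6.21, 4.38, 9.11 and 6.53, and differed by −0.17 (SE 0.85). Without MEKi tumor 3 the MEKi mean was 5.707 for Arg1, against 6.725 in controls. For Mrc1 it was then 5.917, against 7.453 in controls. Cd163, a receptor for haptoglobin and hemoglobin, read 3.56, 3.75, 8.15 and 3.30, so that MEKi tumor 3 stood far above the rest of its group and of the controls. Its difference was 0.95 (SE 0.94) with that tumor and −0.21 without it. Il6 showed the same tumor, at 4.40, 3.44, 9.20 and 4.15, and its difference went from 0.72 (SE 1.28) to −0.58 without MEKi tumor 3. Of 18 other IL-4-type genes, 0 were higher and 5 lower at an unadjusted p under 0.05, and of the 16 LPS and interferon gamma genes 0 were higher and 4 lower. None of either list passed an adjusted p under 0.05.

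Comparing MEKi+CD40 tumors with controls asked what both agents did together. None of the 10 members passed an adjusted p under 0.05 (limma), against 0.00888% of all probe sets, and none passed an unadjusted p under 0.05, against 8.6% of all probe sets higher and 12.6% lower. The members' median difference was 0.47 (9 positive, 1 negative), with wide errors. Cd163 read 9.57, 3.46, 7.67 and 3.37 in the combination, and its control tumors lay at 3.55 to 4.10. Its difference was 2.27 (SE 1.31, limma adjusted p = 0.366) and −0.33 without MEKi+CD40 tumors 1 and 3. Il6 read 9.48, 3.90, 7.05 and 6.12, a difference of 2.06 (SE 1.23). It was 0.43 without the same 2 tumors. Retnla read 7.17 in tumor 1 and 4.45 to 4.77 in the other 3, which were below background, and its difference was 0.67 with tumor 1 and 0.04 without it. The other 7 members differed by −0.10 (Msr1) to 1.19 (Chil3), each with an interval that includes 0. Without MEKi+CD40 tumors 1 and 3 the differences of Chil3, Arg1 and Mrc1 had the opposite sign, at −0.43, −0.42 and −0.69. Of the IL-4-type genes 2 were higher and 0 lower at an unadjusted p under 0.05, and of the LPS and interferon gamma genes 0 were higher and 1 lower, with 0 at an adjusted one.

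Comparing MEKi+CD40 with CD40 tumors asked what the inhibitor added to the antibody. None of the 10 members passed an adjusted p under 0.05 (limma), while 4.74% of all probe sets did. Msr1 was the 1 member below an unadjusted p of 0.05, in the lower direction, against 10.6% of all probe sets lower and 10.8% higher. It read 9.31, 8.12, 7.16 and 6.53 in MEKi+CD40 tumors, against 8.80 to 10.43 in CD40 tumors. Only MEKi+CD40 tumor 1 lay within the CD40 range. The difference was −1.79 (SE 0.60, limma adjusted p = 0.129), and leaving out single tumors moved it from −2.30 without MEKi+CD40 tumor 1 (adjusted p = 0.0287) to −1.38 without MEKi+CD40 tumor 4 (adjusted p = 0.234). The adjusted p was 0.0287 to 0.296 over all alternatives. By the mean of all 4 Msr1 probe sets it was −1.12. At another Msr1 probe set the groups did not overlap, as for 6.75% of all probe sets in this direction. The difference there was −1.035 (SE 0.32, limma adjusted p = 0.105). The remaining Msr1 probe sets had overlapping groups and differed by −1.035 and −0.60, the last of these below background. Arg1 differed by −1.62 (SE 1.10), from 10.40, 6.75, 7.71 and 5.86 in the combination, and by −2.40 (SE 0.76) without the 3 tumors with high fibroblast and muscle genes in these 2 groups. The other 8 members differed by −0.93 (Chil3) to 2.01 (Cd163), each with an interval that includes 0. Without the same 3 tumors the differences were −2.23 for Chil3, 0.045 for Cd163, 0.67 for Il6 (1.26 with them) and 0.005 for Retnla (0.68 with them). Of 7 arginine metabolism genes, 0 were higher and 2 lower at an unadjusted p under 0.05. Among them Odc1, which turns ornithine into polyamines, fell by 0.54 (SE 0.08, limma adjusted p = 0.0266). Without CD40 tumor 2, or without CD40 tumor 4, 0 probe sets on the array were called, so its call rests on both. Few were called without CD40 tumor 1 (7), MEKi+CD40 tumor 3 (6) or MEKi+CD40 tumor 4 (73), against 2133 with all tumors. With the replicate block 0 were called too. Of the IL-4-type genes 0 were higher and 3 lower at an unadjusted p under 0.05, and of the LPS and interferon gamma genes 0 were higher and 2 lower, with 0 at an adjusted one.

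Comparing MEKi+CD40 with MEKi tumors asked what the antibody added to the inhibitor. None of the 10 members passed an adjusted p under 0.05 (limma), against 1.15% of all probe sets. Chil3 was the 1 member higher at an unadjusted p under 0.05 and 0 were lower, against 8.5% of all probe sets higher and 11.8% lower. It read 7.34, 5.37, 8.35 and 3.81 in the combination, against 3.89, 3.70, 4.76 and 4.14 in MEKi tumors, all of the latter below background. MEKi+CD40 tumor 4 was also below background and lay within the MEKi range. The difference was 2.10 (SE 0.88, limma adjusted p = 0.228), 1.38 without MEKi+CD40 tumor 3 and 0.47 without MEKi+CD40 tumors 1 and 3, which had abundant muscle transcripts. With the macrophage identity list as a covariate it was 0.31, and 9 of the 14 identity genes were higher at an unadjusted p under 0.05. So were 5 of 7 neutrophil genes and 5 of 7 T cell genes, with 0 of any of these lists at an adjusted one, and their part in the difference was not tested. The other 9 members differed by −0.07 (Nos2) to 1.35 (Msr1), each with an interval that includes 0 at the brightest probe set. Without MEKi+CD40 tumors 1 and 3 and MEKi tumor 3 the differences were −0.12 for Cd163 (1.33 with them), 0.60 for Arg1 (1.12 with them) and 0.68 for Chil3. Of 10 other scavenger and mannose receptors, 1 was higher and 1 lower at an unadjusted p under 0.05. Cd36, a scavenger receptor for lipids, rose by 2.09 (SE 0.35, limma adjusted p = 0.0496). Scarb1 differed by −0.62 (SE 0.17, limma adjusted p = 0.0904). Of 7 arginine metabolism genes, 2 were higher and 2 lower. Among them Slc7a1, another cationic amino acid transporter, fell by 1.16 (SE 0.18, adjusted p = 0.0496). The calls of Cd36 and Slc7a1 were lost without MEKi tumor 1, 2 or 3 or MEKi+CD40 tumor 3, since 0 probe sets were then called. The same held with cyclic loess, median centring, the replicate block or the macrophage list as a covariate. It also held without the tumors with high muscle or high fibroblast genes. Of the IL-4-type genes 4 were higher and 0 lower at an unadjusted p under 0.05, and of the LPS and interferon gamma genes 5 were higher and 1 lower, with 0 at an adjusted one.

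The interaction asked whether the effect of the antibody differed with the inhibitor, and none of the 10 members passed an adjusted or an unadjusted p under 0.05 (0% of all probe sets at an adjusted p, and 6.82% higher and 7.44% lower at an unadjusted one). The smallest adjusted p among members was 0.74 at their brightest probe sets and 0.502 at another Msr1 probe set (limma). Arg1 had an interaction of −1.45 (SE 1.51).

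Cd163 and Il6 were high in the tumors with high fibroblast genes, a split made after seeing the data. Cd163 was 5.93 to 9.57 in the 4 tumors with high fibroblast genes and 3.23 to 4.10 in the other 12, with no overlap and with all 12 below background. Il6 was 7.05 to 9.48 in these 4 tumors and 3.22 to 7.18 in the others, where control tumor 4 (7.18) was within the range of the first 4. Mrc1 was 6.84 to 10.55 against 5.19 to 8.65, and Arg1 7.71 to 11.06 against 4.38 to 9.88, both overlapping. These tumors also held muscle transcripts in 3 of 4 cases, and the part of either tissue in the Cd163 and Il6 levels was not tested.

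**Figure D5:**
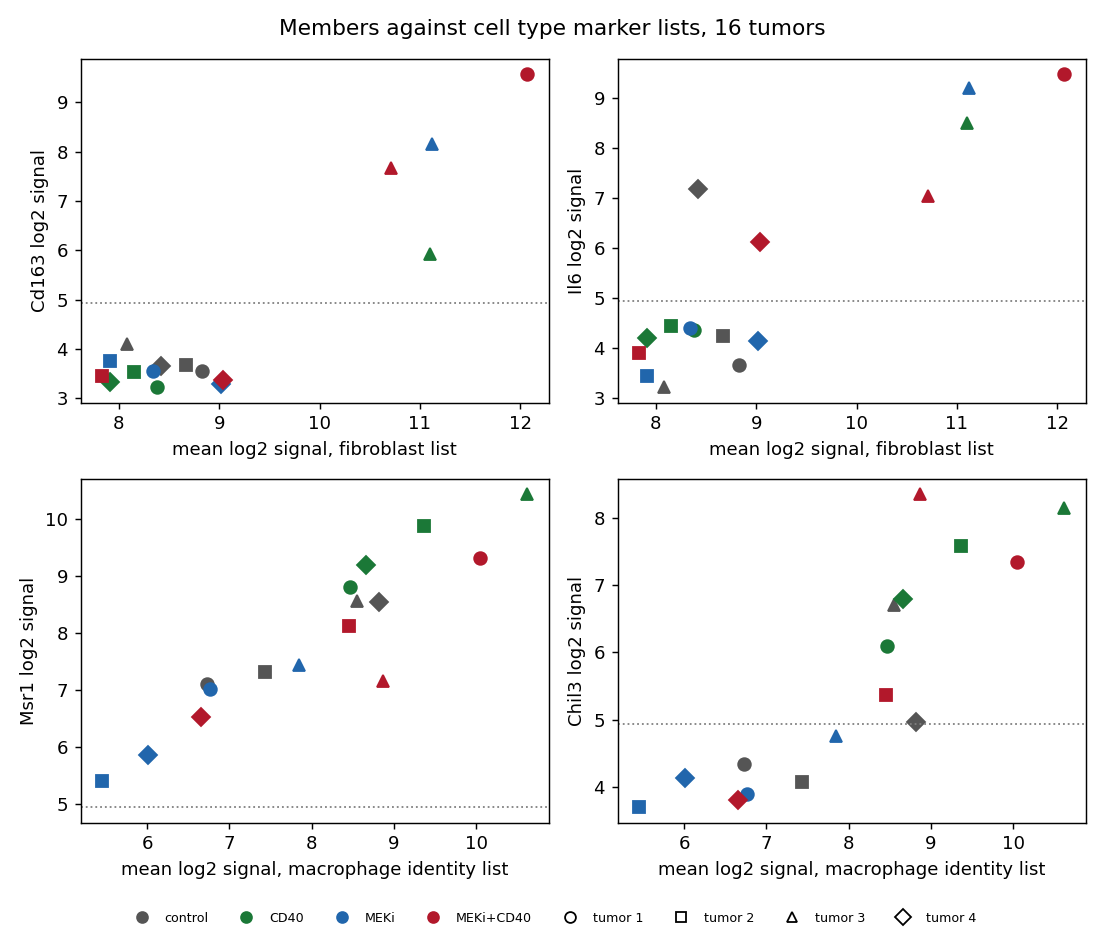
Log2 signal of Cd163 and Il6 against the mean log2 signal of the fibroblast list, and of Msr1 and Chil3 against that of the macrophage identity list, in the 16 tumors, with a color per group and a marker shape per tumor number. The dotted line is background, and Cd163 was 5.93 or higher in the 4 tumors in which the fibroblast list was 10.71 or higher and below background in the other 12.

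The order of the group means depended on the 4 tumors with high fibroblast genes, apart from that of Msr1, which ran from MEKi through MEKi+CD40 and control to CD40 with and without them. Arg1, Chil3 and Tnf ran from MEKi through control and MEKi+CD40 to CD40, and without the 4 tumors MEKi+CD40 lay below control for all 3. Mrc1 had that first order too, but without the 4 tumors its highest mean was that of controls (7.45, against 7.34 in CD40). Cd163 was highest in MEKi+CD40 and lowest in controls with all tumors, and without the 4 tumors its means were 3.75 in control, 3.54 in MEKi, 3.42 in MEKi+CD40 and 3.37 in CD40, all below background. Il6 was also highest in MEKi+CD40 and lowest in controls. Without the 4 tumors its means were 5.01 in MEKi+CD40, 4.58 in control, 4.34 in CD40 and 4.00 in MEKi, all but the first below background. With all tumors, neighboring groups in these orders overlapped except control and CD40 for Msr1. The 4 group means of Nos2 spanned 0.13 and its values lay between 5.14 and 5.78 in all tumors, not far above background.

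Genes whose levels most resembled each member over the 16 tumors are given as a description. All points are bulk tumors that differ in cell content. Among 12699 genes, Msr1 was most like Fcgr1 (Pearson r 0.961), Ctsc (0.958) and Coro1a (0.956). Tnf was most like Tbxas1 (0.964), Hcar2 (0.963) and Cyp4f18 (0.961), and Arg1 most like Pfkfb3 (0.954), Ltb4r1 (0.95) and Lgals3 (0.928). Chil3 was most like C1ra (0.948), Pla2g7 (0.935) and Cd300lf (0.926), and Mrc1 most like Dab2 (0.946), Wfdc17 (0.918) and Ccl9 (0.911). Cd163 was most like Dpep1 (0.981), Pi16 (0.979) and Lbp (0.979), and Il6 most like Cxcl1 (0.965), Mrc2 (0.921) and Cebpd (0.918). For Retnla the nearest were Xist (0.977), Eln (0.976) and Sypl2 (0.973), where 1 tumor, MEKi+CD40 tumor 1, stood apart. Il10 was most like Gltp (0.934), Cd300c2 (0.912) and Prex1 (0.912), though below background. Nos2 had no close partner, Hmox1 at 0.744 being the nearest, then Chrd (0.705) and Srxn1 (0.691).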

How the data were processed

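Per the labels and methods, labelling used a 3′ IVT kit and 200 ng of RNA, which was hybridised to Affymetrix mouse arrays. The authors normalized the arrays by robust multichip averaging (RMA) in Chipster and deposited log2 values, which were used as given. RMA pulls arrays to 1 distribution, so a shift of all genes cannot be seen. The sources used here do not give its version.

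Of 45101 probe sets, 64 controls were left out. Of the 45037 tested, 34945 had 1 gene symbol, 932 several and 9160 none. Comparisons of 2 groups used only their 8 arrays and the interaction all 16, with lmFit and eBayes (limma 3.58.1, R 4.3.3), adjusted by Benjamini-Hochberg over all probe sets. Where 1 value per gene was needed, the probe set with the highest mean was used. Named genes are all members, the 3 genes most like each by Pearson correlation over 16 tumors, and up to 4 genes of each list by smallest p. C1qa, Pdcd1lg2 and Xist are named outside this rule, after their values were seen. Members and lists were chosen with earlier results of these data known. Precision is limited by 4 arrays per group (median SE over all probe sets 0.103 to 0.119). Many members had larger SEs, such as 0.43 for Msr1 and 0.76 for Arg1 in CD40 against control. The alternatives were all arrays in 1 fit, a replicate block, a background filter, array weights, median centring, cyclic loess, a robust eBayes with trend, the macrophage list as a covariate, the mean of a gene's probe sets, leaving out muscle-rich tumors or each tumor, and, added after seeing the data, leaving out tumors with a high fibroblast list or using that list as a covariate. Promoters came from RefSeq (GRCm38.p6). Plots used matplotlib 3.10.9, and tables pandas 2.3.3 and numpy 2.4.6 (Python 3.11.15).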

Additional observations from a re-analysis of the deposited data

Results flagged for a closer look

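Single tumors far from the other 3 of their group were found in 6 of 40 sets of a member and a group, by the gap to the nearest tumor over the group's range, a rule that chance meets in about 1 of 20 sets. Cd163 stood at 5.93 in CD40 tumor 3 and at 8.15 in MEKi tumor 3. Il6 stood at 8.5 in CD40 tumor 3 and at 9.20 in MEKi tumor 3. Both tumors also had high fibroblast genes, and the part of those cells was not tested. Retnla stood at 7.17 in MEKi+CD40 tumor 1, the tumor with the highest muscle level and with Xist at 10.59. Nos2 stood at 5.14 in control tumor 4, with the other controls at 5.54 to 5.59.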

How the results depend on the processing

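No member was called in any of the 6 comparisons, and of 126 counts of called members under alternatives, 123 were 0. The exceptions were all in MEKi+CD40 against CD40: 1 with array quality weights (Msr1, −1.96, limma adjusted p = 0.0375), 2 with the macrophage identity list as a covariate (Msr1, −1.22, adjusted p = 0.0478, and Cd163, 3.30, adjusted p = 0.0476, a gene whose difference was 0.045 without the tumors with high fibroblast genes), and 0 to 1 when single tumors were left out (Msr1 without MEKi+CD40 tumor 1). The 7 member differences given a direction were those with an unadjusted p under 0.05 (limma) or with groups that did not overlap. All 139 of their alternatives kept the direction. The alternatives refit the same tumors that picked the 7, so they are no independent support. Of the other 53, 36 turned sign under at least 1 alternative. The replicate numbers did not pair the tumors (correlations of same-numbered tumors −0.517 to 0.416), and with the replicate block 0 members were called, the adjusted p of Msr1 in CD40 against control being 0.275. Calls over all probe sets depended on single tumors and on the fit. They went from 4 to between 0 and 4904 in MEKi+CD40 against control, from 2133 to between 0 and 5309 against CD40, and from 518 to between 0 and 4699 against MEKi, the highest with all arrays in 1 fit and 0 with the replicate block. Against control and against MEKi, these calls were also 0 with cyclic loess, median centring or the macrophage list as a covariate. They were 0 there without the muscle-rich tumors and without some single tumors too. For the interaction they went from 0 to at most 755, with array weights, and the single treatments reached at most 4 and 2. The cause was not tested. Signal near background limits Retnla, Cd163 and Il10, and also Il6 outside its high tumors and Chil3 in MEKi tumors. Nos2 in all tumors (5.14 to 5.78) and Tnf in MEKi tumors (5.48 to 5.78) lay not far above the background of 4.94. Whether the level Nos2 signal is detected transcript was not tested.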
